A study of Macaca mulatta with 2 samples.

Results

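The transcripts described here are 10 genes that mark retinal ganglion cells or build the neurofilaments of axons, taken by gene symbol from a table of 16684 genes. The neurofilament genes are *NEFL*, *NEFM*, *NEFH* and *INA*, and the ganglion cell genes are *RBPMS*, *POU4F1*, *POU4F2*, *SNCG*, *SLC17A6* and *THY1*. All 10 were listed, and 8 stood above 0 in at least 1 library. The RNA came from optic nerves of wild-type, untreated rhesus macaques (*Macaca mulatta*), donated as tissue discarded after death. The nerves are those of a 12-year-old male in the methods and of different animals in the deposited design. The 2 libraries are therefore nerves of 1 animal or of 2, and their spread does not separate biological from technical variation. Levels are in TPM, the length-corrected share of a library's reads scaled to a fixed total, and the libraries are named Rep1 and Rep2.

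Retinal ganglion cells are the output neurons of the retina. Their cell bodies lie in the retina and their axons form the optic nerve, so the nerve itself holds the axons but not the nuclei from which ganglion cell genes are transcribed, and most of its cells are glia, vascular cells and fibroblasts. Neurofilaments are the intermediate filaments of axons. They are assembled from a light, a medium and a heavy chain, with alpha-internexin as a further subunit in the central nervous system, and they set the calibre of large myelinated axons. Neurofilament light chain released into body fluids is widely used as a sign of axonal damage.

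The heavy chain has a long tail in which the amino acids lysine, serine and proline recur many times, the medium chain carries fewer such repeats, and the serines of these repeats are heavily phosphorylated in axons. Coding sequence of that tail is shown because the number of repeats differs among the subunits in these transcript models. The stretch lies in exon 4 of 4 of *NEFH*, at chr10:22054050-22054289 of Mmul_10 on the minus strand, is 240 bases long, and was read from RefSeq. Capitals mark each AAGTCNCC, the letters searched on the sense strand for this repeat, where N is any base.

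NEFH: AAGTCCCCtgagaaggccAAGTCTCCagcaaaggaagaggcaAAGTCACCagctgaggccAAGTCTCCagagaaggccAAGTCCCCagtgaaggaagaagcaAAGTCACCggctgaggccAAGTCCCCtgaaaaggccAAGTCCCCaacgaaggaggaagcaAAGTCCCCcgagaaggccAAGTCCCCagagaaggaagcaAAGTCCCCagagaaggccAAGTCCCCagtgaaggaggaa

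These 240 bases held 12 copies, all 12 in the reading frame. The longest *NEFH* transcript held 38 copies, that of *NEFM* held 7, and those of *NEFL* and *INA* held 0. Among the 16250 listed genes with a coding transcript of at least 300 bases, 17.0% held at least 1 copy, and *NEFH* was the 1 gene with a 300-base window of 15 copies, the highest number found.

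The libraries differed in depth and in makeup, which touches every value below. A single read of Rep1 weighed as much in TPM as 17.2 of Rep2, and Rep1 listed 38.5% of genes at 0 against 12.5% in Rep2. Markers at least 2-fold lower in Rep1, on the log2(TPM + 1) scale, were all 6 of oligodendrocytes and all 6 of fibroblasts. So were all 6 of smooth muscle and pericytes and 4 of 5 of astrocytes, against 51.3% of all genes. Of 10 photoreceptor markers 6 were at least 2-fold higher in Rep1, against 14.8% of all genes. Over the 14693 genes found in either library (above 0 in Rep1 or Rep2) the median difference, Rep1 minus Rep2, was -1.07 on the log2(TPM + 1) scale. With 1 condition there was no comparison between groups and no test.

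The ganglion cell genes separated into 3 that were abundant and 3 that were at or near 0. *THY1*, *RBPMS* and *SNCG* were found in both libraries, at means of 869, 127 and 52.2 TPM. *POU4F1*, *POU4F2* and *SLC17A6*, which are the more restricted neuronal genes of the set, were listed at 0 in Rep1, and only *POU4F1* stood above 0 in Rep2. All 4 neurofilament genes were found in both libraries, with means between 2.34 and 14.0 TPM, below those of *THY1*, *RBPMS* and *SNCG*. Rep1 alone did not keep to this, as *INA* at 26.3 TPM stood above *SNCG* at 20.0 TPM there. The label of ganglion cell transcripts therefore rests on *THY1*, *RBPMS* and *SNCG*, which other cell types also express.

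**Figure D1:**
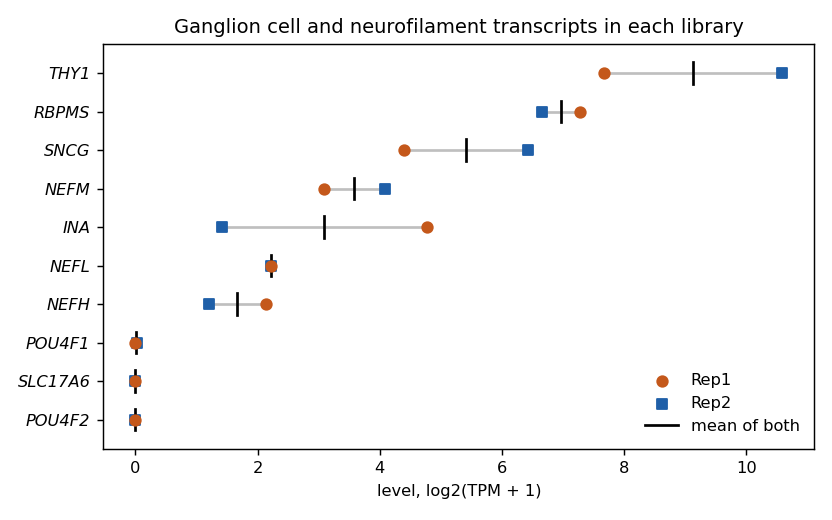
Level of each of the 10 genes in Rep1 (circles) and Rep2 (squares) on the log2(TPM + 1) scale, with a black bar at the mean of both libraries. *THY1* lies highest, at 7.67 in Rep1 and 10.59 in Rep2, and *POU4F1*, *SLC17A6* and *POU4F2* lie at or next to 0.

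*POU4F1* and *POU4F2* encode the POU-domain transcription factors BRN3A and BRN3B, which ganglion cells need for their differentiation and survival. *POU4F1* (chromosome 17, 60449286 to 60453594, minus strand) reached 0.0127 TPM in Rep2 and 0 in Rep1, and in Rep2 14589 genes stood higher. *POU4F2* (chromosome 5, 144208000 to 144211612, plus strand) was listed at 0 in both libraries. *SLC17A6* (chromosome 14, 43185523 to 43227407, minus strand), which encodes the vesicular glutamate transporter VGLUT2 by which ganglion cells load glutamate into synaptic vesicles, was also listed at 0 in both. Of all listed genes 11.9% were at 0 in both libraries, against 2 of the 10 members. A 0 in Rep1 alone says little at such levels, since 90.5% of the 200 genes nearest to *POU4F1* in Rep2 were also listed at 0 in Rep1. The table holds no read totals, and no upper limit was worked out for these 3 genes. They were not detected or barely detected rather than shown to be missing.

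*RBPMS* encodes an RNA-binding protein that is expressed in ganglion cells and is the protein the study stained to count them in mouse retina, and it is also made by smooth muscle and other mesenchymal cells. It lies on chromosome 8 from 30676497 to 30865358 on the plus strand, overlaps an uncharacterized noncoding RNA gene on the opposite strand that was not among those listed, and has 10 annotated transcripts, from 824 to 5063 bases long. Its level was 155 TPM in Rep1 against 99.9 TPM in Rep2, a mean of 127 ± 38.8 TPM (SD, n = 2), from a minimum of 11 and 122 reads. Such minimums, here and below, come from the ratio between the libraries. The true numbers may be far larger, so the minimums do not rank the genes by coverage. It was thus among the higher genes of both libraries, at percentile 93.7 of all listed genes in Rep1 and 90.7 in Rep2. The fold between the libraries was 1.55, with Rep1 higher.

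The 6 markers of smooth muscle cells and pericytes were all at least 2-fold higher in Rep2 on the log2(TPM + 1) scale, as were 51.3% of all genes. Their summed level was 226 TPM in Rep1 against 1246 TPM in Rep2, with none of the 6 at 0, and *ACTA2*, smooth muscle actin, was the most abundant by mean, at 83.2 and 498 TPM. The part of these cells in the level of *RBPMS* was not tested. In bulk RNA, fewer cells of a type and less RNA per cell cannot be told apart. *RBPMS2*, the paralog of *RBPMS*, was far lower, at 1.05 TPM in Rep1 against 3.52 TPM in Rep2.

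*SNCG* encodes gamma-synuclein, a small protein abundant in the axons of ganglion cells and of peripheral sensory neurons. It lies on chromosome 9 from 51065418 to 51071004 on the minus strand. *SNCG* stood at 20.0 TPM in Rep1 against 84.5 TPM in Rep2, a mean of 52.2 ± 45.6 TPM (SD, n = 2), from a minimum of 7 and 509 reads. Rep2 was 4.23-fold higher. *SNCG* overlaps *MMRN2*, an endothelial matrix gene on the opposite strand. The use of strand in the counting is not given in the sources used here. Whether reads in the shared part were given to either gene or left out is therefore not known. *MMRN2* itself was listed at 0 in Rep1 and at 5.89 TPM in Rep2, below *SNCG* in both.

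*THY1* encodes a cell surface glycoprotein anchored in the membrane by a lipid, long used to label ganglion cells in the retina and also made by fibroblasts and other cells. It lies on chromosome 14 from 112476657 to 112482017 on the minus strand and overlaps an uncharacterized protein-coding gene on the opposite strand that was not among those listed. Its level was 203 TPM in Rep1 against 1535 TPM in Rep2, a mean of 869 ± 942 TPM (SD, n = 2), from a minimum of 125 and 16279 reads. *THY1* was the highest of the 10 genes in both libraries, and in Rep2 only 37 genes stood above it. It made up 48.4% of the summed TPM of the 10 genes in Rep1 and 88.1% in Rep2.

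The 7.58-fold higher level of *THY1* in Rep2 lay between those of the summed fibroblast and oligodendrocyte lists, each made up mostly of a single gene. The 6 fibroblast markers, led by *DCN* (decorin), summed to 1618 TPM in Rep1 against 15164 TPM in Rep2, a 9.37-fold difference. The 6 oligodendrocyte markers, led by *MBP* (myelin basic protein), differed 4.61-fold in the same direction, from 45982 to 212174 TPM. No marker of either list was at 0. Single genes did not keep to these sums, with 7.84-fold for the oligodendrocyte marker *MAG* and 4.10-fold for the fibroblast marker *COL3A1*. The astrocyte sum was 6.49-fold higher in Rep2, and that of smooth muscle and pericytes 5.52-fold. The part of fibroblasts or of other cells in the level of *THY1* was not tested.

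In the values as deposited, *NEFL* was level between the libraries, *NEFM* was higher in Rep2, which turned under another scaling given below, and *NEFH* and *INA* were higher in Rep1. *NEFL* encodes the light chain, with which the medium and heavy chains assemble into filaments. It lies on chromosome 8 from 25216264 to 25222081 on the minus strand and was at 3.63 TPM in Rep1 against 3.65 TPM in Rep2, a mean of 3.64 ± 0.013 TPM (SD, n = 2), from a minimum of 15 and 259 reads. Genes at this level varied widely, with a single-library SD of 1.97 on the log2(TPM + 1) scale over the 200 nearest genes, so the closeness of the *NEFL* values does not give its true error.

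*NEFM*, the medium chain, is the neighbour of *NEFL*, with 32692 bases between the annotated genes, and is read from the plus strand (chromosome 8, 25175785 to 25183571). It was the highest of the 3 classical chains in each library, at 7.48 TPM in Rep1 against 15.9 TPM in Rep2, a mean of 11.7 ± 5.96 TPM (SD, n = 2), from a minimum of 19 and 694 reads. *NEFH*, on chromosome 10 from 22052384 to 22063299 on the minus strand, was the lowest of the 3 in each library, at 3.39 TPM in Rep1 against 1.29 TPM in Rep2, a mean of 2.34 ± 1.49 TPM (SD, n = 2), from a minimum of 13 and 85 reads. Both libraries thus gave the order *NEFM*, *NEFL*, *NEFH*, but *NEFL* and *NEFH* were close in Rep1, at 3.63 and 3.39 TPM. The gap of *NEFL* to *NEFH* lay within the spread between the libraries, as given below. The ratio of *NEFM* to *NEFL* was 2.06 in Rep1 and 4.36 in Rep2, and that of *NEFL* to *NEFH* was 1.07 in Rep1 and 2.82 in Rep2. These ratios are per length as the authors set it, and the lengths they used are not given in the sources used here.

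*INA*, alpha-internexin, broke this order between the libraries. It lies on chromosome 9 from 103831702 to 103845148 on the plus strand. Its level was 26.3 TPM in Rep1 against 1.67 TPM in Rep2, a mean of 14.0 ± 17.4 TPM (SD, n = 2), from a minimum of 43 and 47 reads, and Rep1 was 15.7-fold higher. *INA* was thus the highest of the 4 subunits in Rep1, where it made up 64.4% of their summed TPM, and made up 7.43% in Rep2, where *NEFM* took 70.6%. By rank it moved from percentile 80.5 of all listed genes in Rep1 to 31.9 in Rep2. The sum of *NEFL*, *NEFM* and *NEFH* was 14.5 TPM in Rep1 against 20.8 TPM in Rep2.

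**Figure D2:**
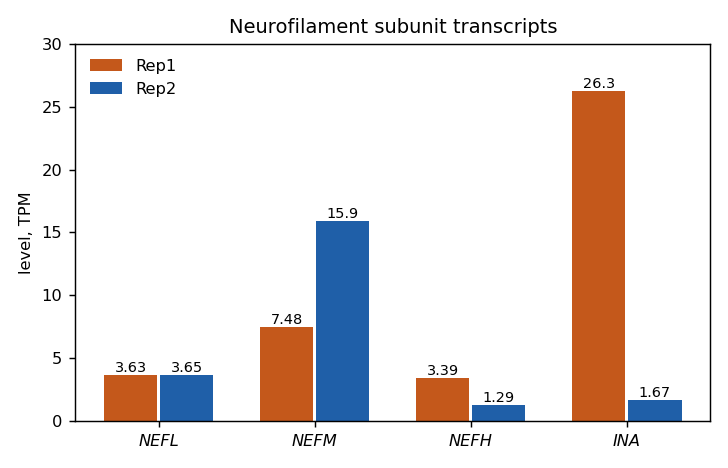
Level in TPM of the 4 neurofilament subunit transcripts in Rep1 and Rep2, 1 bar for each library, with the value above it. *INA* is the highest bar of Rep1 at 26.3 TPM and *NEFM* that of Rep2 at 15.9 TPM, whereas *NEFL* is at 3.63 and 3.65 TPM.

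Set in order of mean log2(TPM + 1), the genes ran *THY1*, *RBPMS*, *SNCG*, *NEFM*, *INA*, *NEFL*, *NEFH*, *POU4F1*, and then *POU4F2* and *SLC17A6* at 0. Each gap was set against a single-library SD, worked out from the differences between Rep1 and Rep2 of the 200 genes nearest in level. These differences were taken about 0, so the SD also holds the general shift between the libraries. A shift shared by 2 genes cancels in their gap, so the SD is to that extent too wide. *THY1* was above *RBPMS* by 1.23 SDs, *SNCG* above *NEFM* by 1.12 SDs and *NEFH* above *POU4F1* by 1.29 SDs, in that order in both libraries. *RBPMS* and *SNCG* differed by 0.989 SDs. The gaps of *NEFM* to *INA* (0.285 SDs), *INA* to *NEFL* (0.480 SDs) and *NEFL* to *NEFH* (0.289 SDs) lay within the spread, so neighbours among the 4 neurofilament genes did not differ beyond it. Of all 6 pairs of these genes, which were compared after the neighbours had been seen, only *NEFM* and *NEFH* were more than 1 SD apart, at 1.08 SDs.

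Differences of at least 2-fold were counted after 1 TPM had been added to each value, a step that shrinks the folds of low genes. Counted so, 1 of the 8 genes above 0 was at least 2-fold higher in Rep1, namely *INA*, with a difference of 3.35, and 14.8% of all genes were. In the other direction, 2 of the 8 were at least 2-fold higher in Rep2, *THY1* at -2.92 and *SNCG* at -2.03, against 51.3% of all genes. In plain TPM *NEFH* was also over 2-fold apart, 2.63-fold higher in Rep1, as was *NEFM*, 2.13-fold higher in Rep2, and the added 1 TPM takes both below the threshold. The remaining differences were -0.99 for *NEFM*, 0.94 for *NEFH*, 0.63 for *RBPMS*, -0.01 for *NEFL* and -0.02 for *POU4F1*. The median over the 8 genes was -0.01, beside -1.07 over all genes. When the libraries were rescaled by the median of ratios, which removes a log2 shift of -1.19, *NEFM* moved to 0.09 and *NEFL* to 0.93, so that Rep1 was then higher in both. With that scaling 3 of the 8 were at least 2-fold higher in Rep1 and 1 in Rep2, and the shares of all genes became 23.7% and 33.8%. *INA*, *NEFH* and *RBPMS* were higher in Rep1, and *THY1* and *SNCG* in Rep2, under both scalings.

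**Figure D3:**
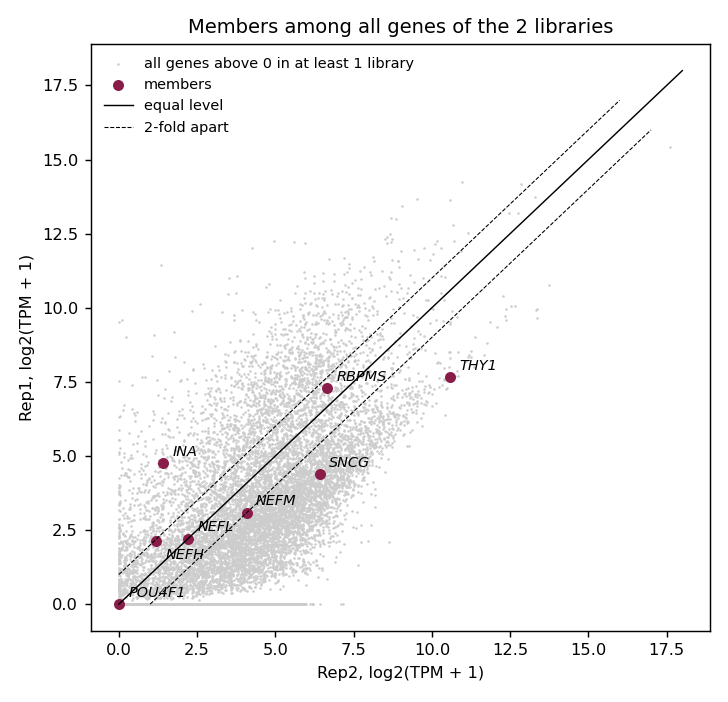
Rep1 against Rep2 on the log2(TPM + 1) scale for all 14693 genes above 0 in at least 1 library (grey), with the 8 members above 0 named. The solid line marks equal levels and the dashed lines 2-fold differences; *INA* lies above the upper dashed line, and *SNCG* and *THY1* lie below the lower one.

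Other genes known from retinal ganglion cells also lay in both directions. Of 18 such genes 17 were listed, *TUBB3* not being among them, and 12 were above 0 in Rep1 and 11 in Rep2. *OPN4*, *EOMES* and *CHRNA6* were listed at 0 in both libraries. The most abundant were *ISL1*, *UCHL1*, *ELAVL4* and *NRN1*. *ISL1*, a LIM-homeodomain factor of ganglion cells that amacrine and bipolar cells of the retina also express, was at 186 TPM in Rep1 against listed at 0 in Rep2. *ELAVL4*, a neuronal RNA-binding protein, was at 39.0 TPM in Rep1 against 0.795 TPM in Rep2. *UCHL1*, a ubiquitin hydrolase of neurons, and *NRN1* (neuritin) went the other way, with 15.2 TPM in Rep1 against 146 TPM in Rep2 for *UCHL1*, and 10.7 and 26.2 TPM for *NRN1*. Of the 14 genes above 0, 7 were at least 2-fold higher in Rep1 and 3 in Rep2, against 14.8% and 51.3% of all genes, with a median difference of 0.66 beside -1.07 over all genes.

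*INA*, *ISL1* and *ELAVL4* were higher in Rep1, as were most markers of the retina and of neurons in general. Of 10 photoreceptor markers 6 were at least 2-fold higher there on the log2(TPM + 1) scale. So were 7 of the 13 inner retinal markers above 0 and 4 of 5 general neuronal genes, against 14.8% of all genes. At least 2-fold higher in Rep2 were 0, 1 and 0 of these lists, against 51.3% of all genes. The 10 photoreceptor markers summed to 3600 TPM in Rep1 against 7.71 TPM in Rep2. *GNAT1* (rod transducin) made up most of the Rep1 sum, at 2763 TPM against 1.56 TPM in Rep2. *PDE6G*, *GNAT2* and *PDC* were also far higher in Rep1, at 514, 200 and 103 TPM against 0.172, 0.687 and 0.120 TPM in Rep2. By contrast, *SAG* was low in both libraries at 1.74 and 1.82 TPM, as were *NRL* at 3.40 and 2.17 TPM and *RCVRN* at 2.80 and 0.912 TPM. In each library 9 of the 10 photoreceptor markers were above 0, *ARR3* being at 0 in Rep1 and *CRX* in Rep2. The 14 listed markers of the inner retina, led by *GAD1*, summed to 538 TPM in Rep1 against 40.3 TPM in Rep2, with 10 above 0 in each and *LHX1* at 0 in both. The 5 general neuronal genes, led by the synaptic gene *SNAP25*, summed to 2489 TPM in Rep1 against 85.7 TPM in Rep2, with none at 0. The summed level of the 3 classical neurofilament chains was 1.44-fold higher in Rep2 as deposited and 1.59-fold higher in Rep1 when rescaled by the median of ratios. The part of retinal RNA in the levels of *INA* and of the other members was not tested.

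Intermediate filaments of glia and mesenchymal cells far exceeded those of axons. *GFAP*, the filament of astrocytes, was at 658 TPM in Rep1 against 4331 TPM in Rep2, and *VIM* (vimentin) was at 513 and 2687 TPM. *GFAP* and *VIM* together stood 28.7-fold above the 4 neurofilament genes in Rep1 and 312-fold above them in Rep2. *LMNA*, which encodes the nuclear lamins A and C, was at 101 and 1028 TPM, and *DES* (desmin), the filament of muscle cells, at 20.2 and 49.6 TPM. Of the 10 other intermediate filament genes above 0, 8 were at least 2-fold higher in Rep2 and 1 in Rep1, against 51.3% and 14.8% of all genes. Their median difference was -2.55 as deposited and -1.36 when rescaled by the median of ratios. The exception was *LMNB1* (lamin B1), at 20.1 TPM in Rep1 against 0.623 TPM in Rep2. *PRPH* (peripherin), which joins neurofilaments in neurons of the peripheral nervous system, was at 24.8 TPM in Rep2 and at 0 in Rep1, and in Rep2 it stood above each of the 4 neurofilament genes. *BFSP2*, a lens filament gene, was listed at 0 in both libraries.

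Genes whose products carry, crosslink, phosphorylate or degrade neurofilaments were more evenly spread. Of 11 such genes, 4 were at least 2-fold higher in Rep1 and 4 in Rep2, against the same 14.8% and 51.3%, with a median difference of -0.31 as deposited and of 0.85 when rescaled by the median of ratios. *TRIM2*, a ubiquitin ligase of neurofilament light chain, was the most abundant by mean, at 207 TPM in Rep1 against 193 TPM in Rep2. *DST* (dystonin), a linker between filament systems, was at 45.9 and 246 TPM, while the kinase gene *GSK3B* was higher in Rep1, with 192 and 26.6 TPM. *KIF5A*, a neuronal kinesin that moves neurofilaments along axons, had the largest difference towards Rep2, with 2.80 TPM in Rep1 against 53.2 TPM in Rep2. Most of these genes are also expressed outside neurons.

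**Figure D4:**
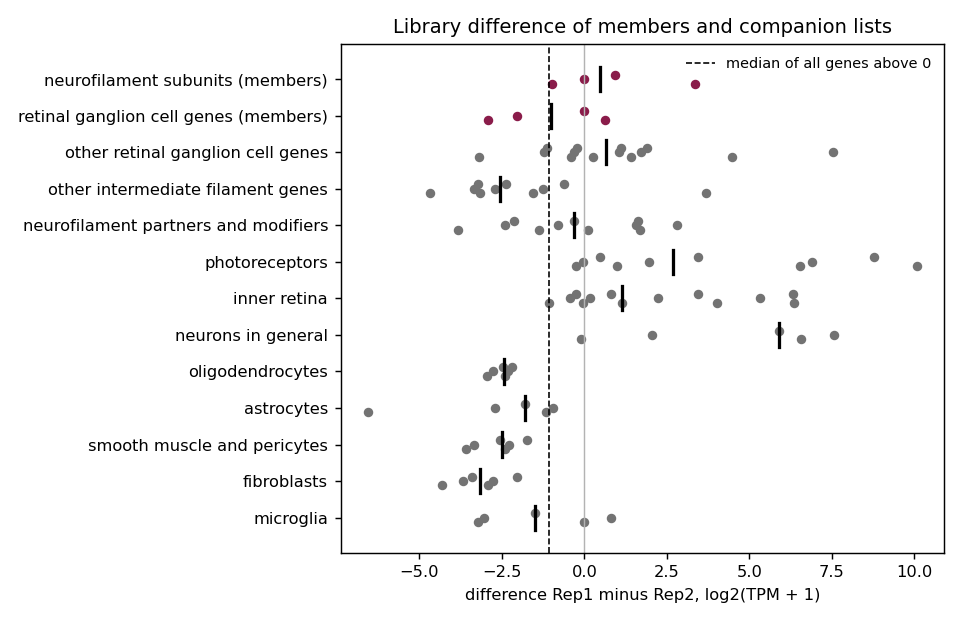
Difference between the libraries, Rep1 minus Rep2 on the log2(TPM + 1) scale, with 1 point for each gene above 0 in at least 1 library and a black bar at the median of each list. The dashed line marks the median of all genes at -1.07; the 4 neurofilament genes have a median of 0.47 and the 4 ganglion cell genes above 0 a median of -1.02, beside 5.91 for general neuronal genes and -3.16 for fibroblasts.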

How the data were processed

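Optic nerve RNA was made into cDNA and amplified for sequencing with a SMARTer v4 Ultra Low Input chemistry. Per the submitters' processing notes and the study's methods, reads were checked with FastQC 0.11.9, trimmed with Trim Galore 0.6.6, aligned to Mmul_10 with STAR 2.7.1a and counted with featureCounts 1.5.3, and the authors deposited TPM, not pooled, with each library summing to 1000000. TPM shifts when a few genes take a large share. Neither column name is tied to an individual sample, so both were used as replicates of 1 condition.

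Here, the mean, the SD and log2(TPM + 1) differences were computed with Python 3.11, numpy 2.4.6 and pandas 2.3.3. The smallest whole read numbers, which are lower bounds, came from TPM ratios with a tolerance of 1e-12, and could be found for 99.9% of the 10168 genes detected in both libraries. They cover counting error only, and amplified copies are not independent. Percentiles of a library were taken among all listed genes. The calculations were tested on simulated data. Coordinates came from the RefSeq annotation of Mmul_10.

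The members and lists were chosen with earlier results of these data known. Named were all members, the 4 genes of highest mean and the largest difference in each direction in each companion list, and the leading gene and genes at 0 of each cell type list. *RBPMS2*, *MMRN2*, *TUBB3*, *PDE6G*, *GNAT2*, *PDC*, *SAG*, *NRL*, *RCVRN*, *MAG* and *COL3A1* were named outside this rule. *POU4F3*, *TBR1* and other list genes are given in counts only, and the value of 1 gene that the rule named is not reported here. Microglial markers summed to 191 TPM in Rep1 and 278 TPM in Rep2, led by *AIF1*, and astrocyte markers, led by *GFAP*, to 765 and 4965 TPM, with none at 0. The rescaled sum of 3 neurofilament chains and the gaps over all 6 neurofilament pairs were added after seeing the data.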

Additional observations from a re-analysis of the deposited data

How the results depend on the processing

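No paired analysis was possible because there is only 1 condition. Leaving aside the values of 1 library alone, 102 recomputed values were called the same, 18 moved and 2 passed 1 SD. Levels and differences were held to the spread, gaps to their side of 1 SD and counts to a set fold. The spread is wide, so that *NEFM*, going from -0.99 to 0.09 with the median of ratios, was called the same. Genes at 0 in both libraries could not move, so the tally is no measure of robustness. Scaling by the median of ratios gave 3.95 TPM for the mean of *NEFL*, and leaving out the 10 most abundant genes gave 4.57 TPM, both beyond its small SD. With a pseudocount of 0.1 the difference of *POU4F1* was -0.17, and 2 members were at least 2-fold higher in Rep1 and 3 in Rep2, and 3 were higher in Rep2 also without the 10 most abundant genes. The median of ratios gave 3 members and 3485 genes higher in Rep1, 1 member and 4972 genes higher in Rep2 (2170 and 7533 genes as deposited), and median differences of 1.57 for other ganglion cell genes, -1.36 for other intermediate filament genes and 0.85 for neurofilament partners, as it raises Rep1 against Rep2. Without 1 library, the ratio of *NEFL* to *NEFH* ran from 1.07 to 2.82 and that of *NEFM* to *NEFL* from 2.06 to 4.36. That of *INA* to *NEFM* ran from 0.105 to 3.51, and that of *GFAP* and *VIM* to the 4 neurofilament genes from 28.7 to 312. Only the first of these ratios was called moved, as each was held to the spread of its own values in Rep1 and Rep2. The gap of *RBPMS* to *SNCG* was 1.01 SDs with a pseudocount of 0.1 and 1.02 SDs with the 500 nearest genes. The depth of Rep1 limits the genes listed at 0 there.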
